A study of Mus musculus with 22 samples.

Results

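The expression of 6 genes of steroid hormone signaling was followed across lean and obese, control and tumor-associated inguinal white adipose tissue (IWAT): Esr1, Pgr, Nr3c1, Nr3c2, Hsd11b1 and Greb1. The genes were taken by symbol from a table of raw read counts for 23420 gene symbols, in which all 6 were present. Their counts were high enough for testing, as were those of 14458 genes in all. RNA was sequenced from 22 libraries of 11 female wildtype C57Bl/6 mice, with 5 lean mice on chow and 6 mice made obese by a high fat diet (HFD). After 16 weeks of diet, at an age of about 20 weeks, each mouse received E0771 cells, a breast cancer line from the same strain, with PBS and Matrigel in the left inguinal pad (tumor-associated IWAT), and PBS and Matrigel without cells in the right pad (control IWAT). Both pads were taken 2 weeks later. Every mouse thus carried a tumor, and the control pad is a sham-injected pad of a tumor-bearing animal. The paper reports larger tumors in the obese than in the lean mice, so diet and tumor size go together in these groups. RNA came from whole tissue, so fewer cells of a type and less RNA per cell cannot be told apart.

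Steroid receptors are transcription factors that wait in the cell bound to chaperones and act on DNA once a hormone binds them. Esr1 encodes estrogen receptor alpha and Pgr the progesterone receptor, whose gene is itself induced by estrogen in mammary epithelium. Greb1 is an estrogen-induced gene whose product binds the estrogen receptor as a cofactor. Nr3c1 encodes the glucocorticoid receptor and Nr3c2 the mineralocorticoid receptor, which also binds glucocorticoids with high affinity. Hsd11b1 encodes an enzyme that regenerates active glucocorticoid from its inactive 11-keto form inside cells, and is well known in adipose tissue and liver. In the mammary fat pad, adipocytes, stromal cells and the epithelial ducts can all hold steroid receptors.

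On mouse genome build GRCm38, with GENCODE M21 as annotation, all 6 are protein-coding genes. There Esr1 lies on chromosome 10 from 4611593 to 5005614 on the plus strand, Pgr on chromosome 9 from 8899833 to 8968611 on the plus strand, and Greb1 on chromosome 12 from 16670615 to 16800886 on the minus strand. Nr3c2 lies on chromosome 8 from 76899442 to 77245012 on the plus strand. Hsd11b1 lies on chromosome 1 from 193221634 to 193264075 on the minus strand, within Lamb3 on the other strand, but shares 0 exon bases with it. Exons of Greb1 share 736 bases with the antisense gene Gm48140, and exons of Nr3c2 share 247 bases with Gm10649 on the other strand. The strand setting of the counting is not given in the sources used here, so reads of these antisense partners could be counted for Greb1 and Nr3c2.

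Of the 6 genes, 5 matched a RefSeq promoter window on GRCm38.p6, from 250 bases before to 50 bases after a gene start, with 7 windows in all. Greb1 and Pgr, known as estrogen-induced genes, are shown as the sequences to which the receptor's core motif could be compared. Both are written 5′ to 3′ on the strand of the gene, Greb1 from chr12:16800837-16801136 on the minus strand and Pgr from chr9:8899583-8899882 on the plus strand. Capitals mark a match to the estrogen receptor core AGGTCA, or to its reverse complement TGACCT.
Greb1: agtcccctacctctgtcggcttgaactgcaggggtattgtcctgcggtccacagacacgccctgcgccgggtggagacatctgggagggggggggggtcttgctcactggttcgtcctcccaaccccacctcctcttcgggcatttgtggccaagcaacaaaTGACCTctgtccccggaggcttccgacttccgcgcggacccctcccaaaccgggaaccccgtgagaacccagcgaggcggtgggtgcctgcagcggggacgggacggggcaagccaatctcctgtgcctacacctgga
Pgr: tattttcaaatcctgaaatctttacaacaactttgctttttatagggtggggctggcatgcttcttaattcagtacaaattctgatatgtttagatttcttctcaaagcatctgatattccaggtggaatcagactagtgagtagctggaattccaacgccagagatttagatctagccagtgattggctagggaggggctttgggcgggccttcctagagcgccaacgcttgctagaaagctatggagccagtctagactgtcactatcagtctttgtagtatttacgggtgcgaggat
The Greb1 window held 1 match and the other 6 windows, 2 of Esr1 and 1 each of Pgr, Nr3c2, Hsd11b1 and the other Greb1 start, held 0. Among all 32851 windows of this length, 16.3% held the core on either strand. The paired estrogen motif, which contains the core and was searched as AGGTCA, any 3 bases and TGACC, was in 0 of the 7 windows and in 0.0548% of all, and the glucocorticoid motif, searched as AGAACA, any 3 bases and TGTTC, was in 0 of the 7 and in 0.0487% of all. The 6-base core AGAACA of the latter was in 0 of the 7 windows and in 19% of all. A match is a run of letters and does not show binding.

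Per kilobase of exon, Nr3c1 was the most abundant of the 6 genes in each of the 4 groups and Greb1 the least. In lean control IWAT the glucocorticoid receptor gene stood at 48.2 ± 3.42 CPM per kilobase (SD, n = 5), where CPM are counts scaled to the normalized library total. Hsd11b1 followed at 25.6 ± 6.41, Pgr at 14.0 ± 9.67, Esr1 at 9.30 ± 0.754, Nr3c2 at 5.80 ± 1.07 and Greb1 at 0.893 ± 0.438 CPM per kilobase (SD, n = 5 each). The libraries of Hsd11b1 and Pgr overlapped, as did those of Pgr and Esr1, so these neighbours in the order did not differ beyond their spread. In obese tumor-associated IWAT, Nr3c1 was at 29.4 ± 5.80 CPM per kilobase (SD, n = 6), above Hsd11b1 at 6.67 ± 4.21. There Hsd11b1, Esr1, Pgr and Nr3c2 each overlapped the next gene in the order, down to Greb1 as the last.

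**Figure D1:**
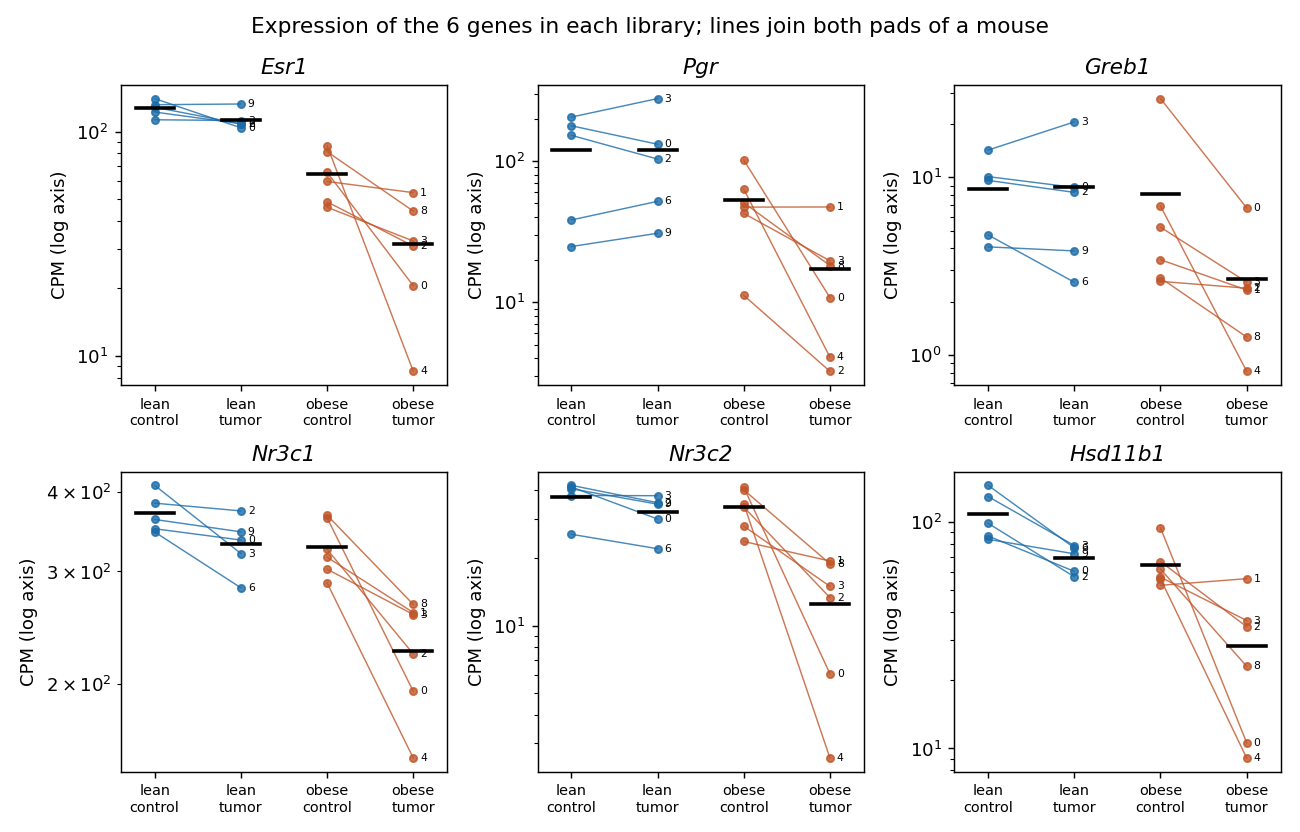
CPM on a log axis for each of the 6 genes in the 4 groups, with 1 point per library, black bars at the group means, lines joining both pads of a mouse and the mouse number beside the tumor-associated pad. All 6 genes have their lowest group mean in obese tumor-associated IWAT, where Esr1 ranged from 8.52 to 53.4 CPM.

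Several libraries held transcripts of other cell types in unequal amounts, summed over marker lists. The 8 adipocyte markers, such as Adipoq and Plin1, summed to 10880 to 14480 CPM in lean control, 7124 to 12463 in lean tumor-associated, 12846 to 22678 in obese control and 1766 to 11217 CPM in obese tumor-associated IWAT. Obese tumor-associated mice 4 and 0 were the lowest in adipocyte markers, at 1766 and 2976 CPM, and the highest in 4 proliferation markers, at 1470 and 1119 CPM against 448 to 764 in the other obese tumor-associated libraries. Obese control mice 1 and 3 held 508 and 436 CPM of 5 lymphocyte markers against at most 49.7 CPM in the other control libraries, and obese tumor-associated mouse 3 held 119 CPM. Mouse 1 also held 810 CPM of skeletal muscle markers in its control pad. No marker of the adipocyte, luminal or basal epithelium lists was at 0 in any library. Calls are therefore also given without these libraries.

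In obese mice all 6 genes fell in tumor-associated IWAT. Of the 6 genes 6 were called lower, at an adjusted p under 0.05 in edgeR's quasi-likelihood test, against 27.7% of all genes called lower, 26.8% higher and 54.5% in either direction. Their median log2 fold change was -1.30, and that of all 14458 genes -0.02. The falls ranged from 1.45-fold for Nr3c1 to 3.04-fold for Pgr.

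Esr1 had 46.0, 62.8 and 86.6 CPM as the lowest, median and highest value in obese control IWAT and 8.52, 31.7 and 53.4 CPM in obese tumor-associated IWAT. The groups overlapped, but the tumor-associated pad was lower in 6 of 6 mice. The log2 fold change was -1.03 (standard error, SE, 0.27; edgeR adjusted p = 0.00341), a 2.04-fold fall. It was called under 32 of 32 alternatives, and was -0.71 without mice 0 and 4 of the tumor-associated group (edgeR adjusted p = 0.00413).

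Nr3c1, on chromosome 18 from 39410545 to 39519421 on the minus strand, had the smallest change. It was at 288, 320 and 367 CPM (lowest, median, highest) in control and at 153, 240 and 266 CPM in tumor-associated IWAT of obese mice. No tumor-associated library reached a control library, which held in this direction for 9.66% of all genes. On the log2 scale the change was -0.54 (SE 0.11, edgeR adjusted p = 0.000771), lower in 6 of 6 mice, with tumor-associated pads at 53.2% to 85.0% of the control pad.

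Nr3c2, the mineralocorticoid receptor gene, also did not overlap between the groups. It had 23.7, 34.3 and 41.3 CPM in control and 2.57, 14.1 and 19.4 CPM in tumor-associated IWAT (lowest, median, highest). Its log2 change was -1.42 (SE 0.31, edgeR adjusted p = 0.000915), a 2.67-fold fall seen in 6 of 6 mice. Without tumor-associated mice 0 and 4 it was -1.03 (edgeR adjusted p = 0.000399). The Nr3c2 CPM of a library were 7.38% to 12.1% of its Nr3c1 CPM in the 16 libraries of the other 3 groups and 1.68% to 7.50% in obese tumor-associated IWAT, a ratio that was not tested.

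Hsd11b1 fell as well. Its CPM were 52.6, 59.6 and 94.3 (lowest, median, highest) in obese control and 9.06, 28.8 and 56.3 in obese tumor-associated IWAT, a log2 change of -1.19 (SE 0.31, edgeR adjusted p = 0.00359). The tumor-associated pad was lower in 5 of 6 mice and was at 107% of the control pad in mouse 1. Leaving out tumor-associated mice 0 and 4 gave -0.80 (edgeR adjusted p = 0.00719). The falls of Nr3c1, Nr3c2 and Hsd11b1 were called under 32 of 32 alternatives each.

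Pgr and Greb1 varied most between mice, and their calls were less secure. Pgr had 11.2, 48.8 and 102 CPM in obese control and 3.22, 14.4 and 47.2 CPM in obese tumor-associated IWAT (lowest, median, highest), lower in 5 of 6 mice. On average the log2 change was -1.61 (SE 0.66, edgeR adjusted p = 0.0455). This call did not hold in 13 of 22 fits that each left out 1 library, namely lean tumor-associated mouse 0, lean control mice 0 and 2, obese tumor-associated mice 0, 2, 3, 4 and 8 and obese control mice 0, 1, 3, 4 and 8, where the edgeR adjusted p was 0.0502 to 0.112 and the log2 fold change between -1.67 and -1.31. It was also lost in a fit to the obese libraries alone (edgeR adjusted p = 0.0526) and without a filter on low counts (edgeR adjusted p = 0.0527). Without tumor-associated mice 0 and 4 it was -1.27 (edgeR adjusted p = 0.169), and without control mice 1 and 3 it was -1.72 (edgeR adjusted p = 0.0588). With the mouse as a block, which pairs both pads, the log2 fold change of Pgr was -1.84 (edgeR adjusted p = 0.00418).

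Greb1 had 2.60, 4.35 and 27.7 CPM in obese control and 0.812, 2.36 and 6.74 CPM in obese tumor-associated IWAT (lowest, median, highest), from 6 to 42 counts per tumor-associated library. The highest value in both groups was mouse 0, and the tumor-associated pad was lower in 6 of 6 mice. The log2 fold change was -1.59 (SE 0.63, edgeR adjusted p = 0.0388). With control mouse 0 left out it was -0.65 (edgeR adjusted p = 0.319). The call was also lost without tumor-associated mice 1, 2, 3, 4 or 8 (edgeR adjusted p = 0.0570 to 0.0773) and in a fit to the obese libraries alone (edgeR adjusted p = 0.0691). Without tumor-associated mice 0 and 4 together it was -1.92 (edgeR adjusted p = 0.0355). With those mice left out, 5 of 6 genes were called, all but Pgr, where 6109 of all genes were called in either direction.

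**Figure D2:**
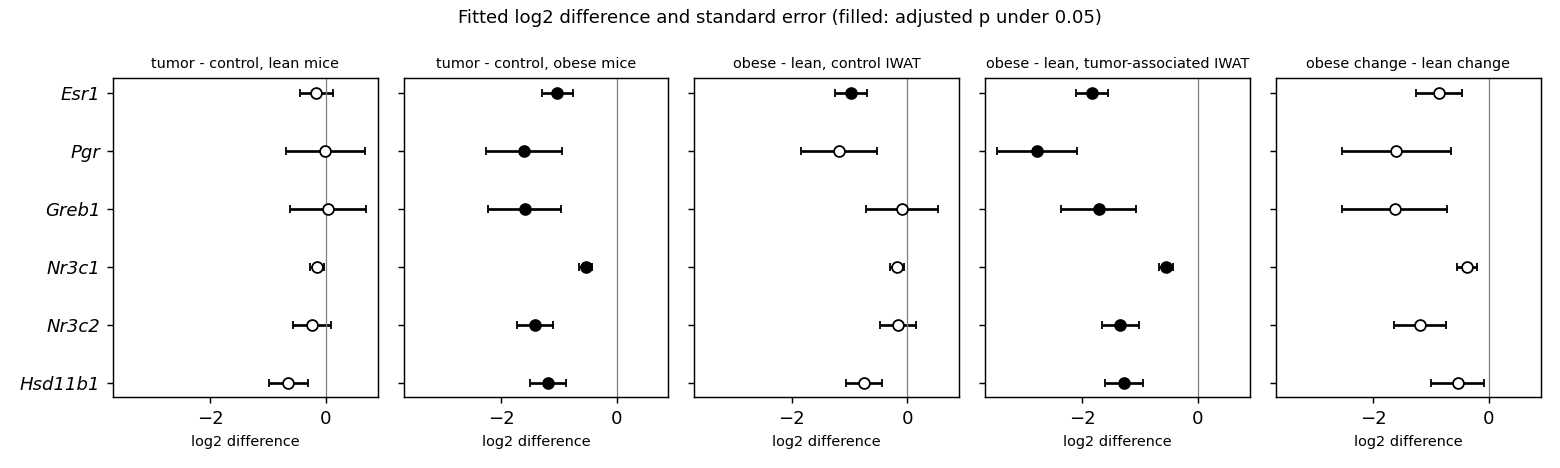
Fitted log2 difference on the x axis with its SE as bars for the 6 genes in the 5 comparisons, filled where the adjusted p is under 0.05. All 6 points are filled and below 0 for tumor-associated against control IWAT in obese mice and for tumor-associated IWAT of obese against lean mice, and 0 of 6 are filled for tumor-associated against control IWAT in lean mice.

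Markers of adipocytes, mammary epithelium and endothelium fell in the same pads. In obese tumor-associated against control IWAT, 7 of 8 adipocyte markers were called lower (median log2 fold change -1.26), 6 of 7 luminal epithelium markers (median -1.62) and 4 of 5 basal epithelium markers (median -1.76). Of the endothelium markers 4 of 5 were called lower (median -0.58), and of 6 fibroblast markers 2 were called lower and 1 higher (median -0.43). All 7 macrophage markers and all 4 proliferation markers were called higher, with medians of 1.57 and 2.89.

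Mouse by mouse, the adipocyte marker sum of the tumor-associated pad was 8.89% of the control pad in obese mouse 4 and 14.6% in mouse 0, where Nr3c2 was at 7.38% and 14.8%, Hsd11b1 at 16.1% and 11.2%, and Esr1 at 9.85% and 31.2%. In obese mouse 1, which kept 87.3% of its adipocyte marker sum, Nr3c2 was at 81.8%, Esr1 at 89.2% and Pgr at 100.2%. Nr3c1 was at 53.2% in mouse 4 and 53.5% in mouse 0. In the same order, basal epithelium markers were at 4.47% and 8.11%, luminal epithelium markers at 31.7% and 27.0%, and endothelium markers at 27.7% and 36.4%. Fibroblast markers were at 31.0% and 132%. Greb1 was at 11.8% in mouse 4 and 24.3% in mouse 0. The mice with the lowest adipocyte marker share thus also had the lowest shares of Esr1, Nr3c1, Nr3c2, Hsd11b1, Pgr and Greb1. They also had the lowest shares of epithelium and endothelium markers. The part of cell composition in these falls was not tested.

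**Figure D3:**
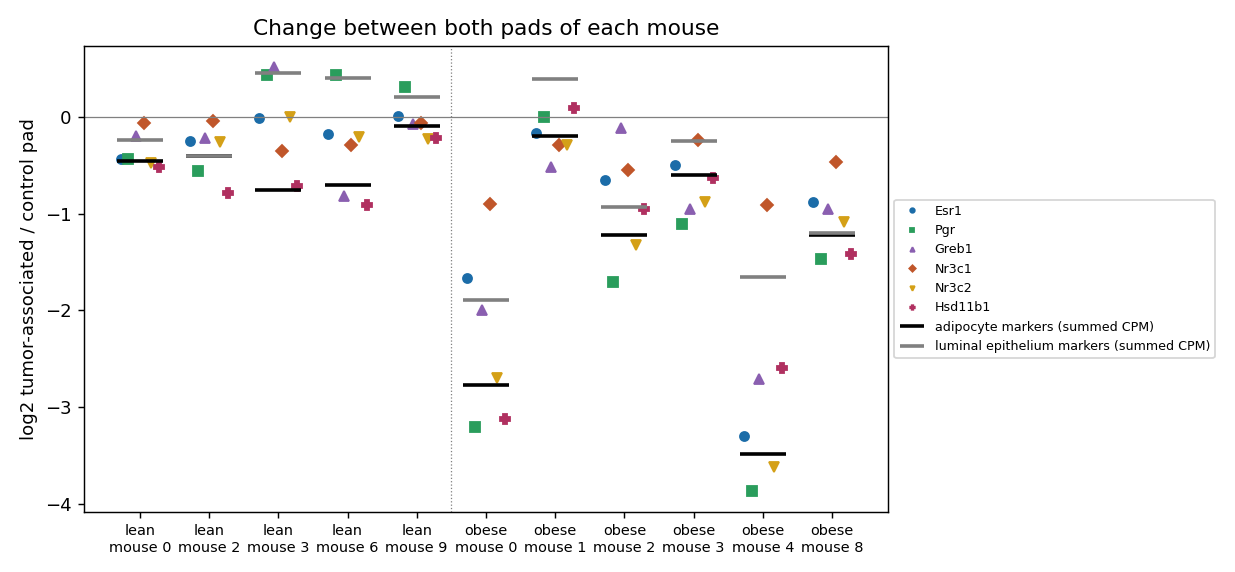
Log2 ratio of the tumor-associated to the control pad for each of the 11 mice, with 1 symbol per gene and horizontal bars for the summed CPM of adipocyte (black) and luminal epithelium (grey) markers. Obese mice 0 and 4 have the lowest values, with adipocyte markers at 14.6% and 8.89% of the control pad, and Nr3c1 is above those bars in both.

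In lean mice 0 of 6 genes were called between tumor-associated and control IWAT, where edgeR called 4.18% of all genes, 0.913% lower and 3.27% higher. At an unadjusted p under 0.05 the count over the 6 genes was also 0, and DESeq2 called 0 of 6. Log2 fold changes ran from -0.65 for Hsd11b1 to 0.04 for Greb1, with a median of -0.16 against 0.01 over all genes.

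Hsd11b1 came nearest to a call. It had 86.9, 98.8, 130, 145 and 83.9 CPM in the control pads of lean mice 0, 2, 3, 6 and 9 and 60.6, 57.4, 78.8, 77.0 and 72.4 CPM in their tumor-associated pads. The groups did not overlap, as for 3.03% of all genes in this direction, and the tumor-associated pad was lower in 5 of 5 mice. The log2 fold change was -0.65 (SE 0.33, edgeR adjusted p = 0.353), and a fit to the lean libraries alone called it (edgeR adjusted p = 0.0278, -0.67). The adipocyte marker sum was 59.1% to 94.0% of the control pad in these mice.

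Esr1 in lean mice was at 140, 128, 113, 122 and 132 CPM in the control pads of mice 0, 2, 3, 6 and 9 and at 104, 108, 112, 108 and 133 CPM in the tumor-associated pads, a log2 fold change of -0.17 (SE 0.29, edgeR adjusted p = 0.927). Nr3c1 was between 346 and 409 CPM in control and between 283 and 373 CPM in tumor-associated IWAT, with a log2 fold change of -0.16 (SE 0.13, edgeR adjusted p = 0.661). Nr3c2 was between 25.5 and 42.2 CPM and between 22.01 and 37.9 CPM, with -0.23 (SE 0.33, edgeR adjusted p = 0.895). The groups of these receptors overlapped and none was called. Within mice, the tumor-associated pad was lower in 5 of 5 for Nr3c1 (78.2% to 97.2% of the control pad) and for Nr3c2 (72.0% to 99.8%), and in 4 of 5 for Esr1.

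Pgr split the lean mice in the same way in both pads. In the control pads of mice 0, 2, 3, 6 and 9 it was at 178, 152, 205, 38.2 and 24.8 CPM, and in the tumor-associated pads at 131, 103, 277, 51.7 and 30.7 CPM. Mice 6 and 9 were the lowest and mouse 3 the highest on both sides. Greb1 gave 10.1, 9.62, 14.2, 4.75 and 4.07 CPM in the control and 8.78, 8.24, 20.5, 2.57 and 3.86 CPM in the tumor-associated pads of these mice, with mouse 3 again the highest and mice 6 and 9 the lowest. The differences between lean mice were thus larger than those between the pads of a mouse, and the log2 fold changes were -0.01 for Pgr (SE 0.68, edgeR adjusted p = 0.998) and 0.04 for Greb1 (SE 0.65, edgeR adjusted p = 0.996).

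Between the control pads, Esr1 was lower in obese mice. It was the 1 of 6 genes called, where 17.1% of all genes were called, 7.53% lower and 9.54% higher. Its lean control libraries lay between 113 and 140 CPM and its obese control libraries between 46.0 and 86.6 CPM, with no overlap, as for 5.59% of all genes in this direction. The log2 fold change was -0.98 (SE 0.27, edgeR adjusted p = 0.0187), a 1.97-fold difference, called in each of 22 fits with 1 library left out. Without obese control mice 1 and 3, which held lymphocyte transcripts, it was -0.86 and no longer called (edgeR adjusted p = 0.0798). With obese tumor-associated mice 0 and 4 left out as well, it was -0.87 and called (edgeR adjusted p = 0.00118).

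Of the other 5 genes, Pgr differed by -1.19 (SE 0.66, edgeR adjusted p = 0.228) and Hsd11b1 by -0.75 (SE 0.32, edgeR adjusted p = 0.111), both not called. Hsd11b1 was called without obese tumor-associated mouse 4 (edgeR adjusted p = 0.0436), and in the fit to the control groups alone (edgeR adjusted p = 0.0107). Nr3c1, Nr3c2 and Greb1 had log2 differences of -0.18, -0.16 and -0.09, with edgeR adjusted p between 0.332 and 0.939. The median of the 6 was -0.46, against 0.04 over all genes. In these pads 3 of 7 luminal epithelium markers were called lower in obese mice (median -1.05) and 1 of 5 basal markers, and the adipocyte list had 2 of 8 called higher, Lep and Cidec, and 1 lower, Cfd.

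Between the tumor-associated pads, all 6 genes were lower in the obese mice. Since tumors were larger in the obese mice, diet and tumor size cannot be told apart in this comparison. Of the 6 genes 6 were called, against 47% of all genes, 22.4% called lower and 24.7% higher, with a median log2 difference of -1.53 against 0.03 over all genes. This comparison shares its obese libraries with the tumor comparison in obese mice and its lean libraries with that in lean mice, so that the counts are not separate evidence.

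Esr1 showed the smallest p of the 6. It was between 104 and 133 CPM in lean and between 8.52 and 53.4 CPM in obese tumor-associated IWAT, a log2 difference of -1.83 (SE 0.28, edgeR adjusted p = 5.36e-05). Pgr was between 30.7 and 277 CPM against 3.22 to 47.2 CPM, a difference of -2.78 (SE 0.70, edgeR adjusted p = 0.00289) and the largest of the 6, at 6.89-fold. Esr1, Nr3c1, Nr3c2 and Hsd11b1 did not overlap between lean and obese mice, as for 13.4% of all genes in this direction, whereas Pgr and Greb1 did.

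Hsd11b1 was between 57.4 and 78.8 CPM in lean and at most 56.3 CPM in obese tumor-associated IWAT, a log2 difference of -1.28 (SE 0.32, edgeR adjusted p = 0.00316). Nr3c2 differed by -1.35 (SE 0.32, edgeR adjusted p = 0.00204) and Nr3c1 by -0.56 (SE 0.12, edgeR adjusted p = 0.000904). These differences and those of Esr1 and Pgr were called under 31 of 31 alternatives. Without obese tumor-associated mice 0 and 4 they were between -2.43 for Pgr and -0.41 for Nr3c1.

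Greb1 differed by -1.72 (SE 0.65, edgeR adjusted p = 0.0354). Its call was lost without lean tumor-associated mouse 3, the highest lean library, at -1.13 (edgeR adjusted p = 0.172), and without lean mouse 0 or obese mice 1, 2, 3, 4 or 8 of the tumor-associated group (edgeR adjusted p = 0.0527 to 0.0733, log2 difference -1.72 to -1.53). All 7 luminal and all 5 basal epithelium markers were lower in obese tumor-associated IWAT, with medians of -2.68 and -2.47, and 3 of 8 adipocyte markers, with a list median of -0.63. Of the fibroblast markers 4 of 6 were called lower (median -1.08), and of the endothelium markers 0 of 5 (median -0.22). The part of these cell types in the differences was not tested.

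The change with tumor was not shown to differ between the diets. For the obese minus the lean change, 0 of 6 genes were called by edgeR, where 4.92% of all genes were, 2.34% with a negative and 2.58% with a positive value. DESeq2 called 0 of 6, and 3 of 6 had an unadjusted p under 0.05, as did 4760 of all 14458 genes. All 6 values were negative, from -1.63 for Greb1 to -0.38 for Nr3c1. Nr3c2 had the smallest adjusted p, at -1.18 (SE 0.45, edgeR adjusted p = 0.0860), followed by Nr3c1 at -0.38 (SE 0.17, edgeR adjusted p = 0.129) and Esr1 at -0.86 (SE 0.39, edgeR adjusted p = 0.134). Without obese tumor-associated mouse 1, Nr3c2 reached -1.34 (edgeR adjusted p = 0.0369) and Esr1 -1.06 (edgeR adjusted p = 0.0420), and both were called. Without obese tumor-associated mice 0 and 4, 0 of 6 were called. Nr3c2 was then at -0.78 (edgeR adjusted p = 0.0990), Esr1 at -0.52 (edgeR adjusted p = 0.206), Nr3c1 at -0.23 and Hsd11b1 at -0.14. In that fit Pgr was at -1.24 and Greb1 at -1.94. With obese control mice 1 and 3 left out as well, Nr3c2 was called at -0.88 (edgeR adjusted p = 0.0422).

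Other genes around these receptors were described as 6 lists. The estrogen and progesterone list held genes that respond to these hormones and also the transcription factors Gata3 and Foxa1. In obese mice 7 of its 16 tested genes were called lower in tumor-associated IWAT and 1 higher, with a median log2 fold change of -0.70. Over all genes 27.7% were called lower and 26.8% higher, so the 8 calls in either direction were near the 54.5% of all genes. The lower calls were 5 of 16 without obese tumor-associated mice 0 and 4. They were 4 of 16 with obese control mice 1 and 3 left out as well. Gata3, a luminal transcription factor, fell by 1.67 on the log2 scale (edgeR adjusted p = 0.000787), and Foxa1, which opens chromatin for the estrogen receptor, fell by 1.64 (edgeR adjusted p = 0.00323). Wnt4, a progesterone-induced signal, fell by 1.59 (edgeR adjusted p = 0.00458), while Ccnd1, a cyclin of the cell cycle, rose by 1.44 (edgeR adjusted p = 0.00102). Prlr, the prolactin receptor gene, was at 398 ± 152 CPM (SD, n = 6) in the control pads of obese mice and at 144 ± 133 CPM (SD, n = 6) in their tumor-associated pads and fell by 1.46 (edgeR adjusted p = 0.0167). In lean mice 0 of the 16 were called.

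Between obese and lean tumor-associated IWAT, 10 of the 16 were lower and 0 higher, where 22.4% of all genes were lower and 24.7% higher, with a median of -1.64. Cited1, an estrogen-dependent coactivator of the ducts, had the lowest value at -3.64 (edgeR adjusted p = 5.02e-05), and Prlr differed by -2.73 (edgeR adjusted p = 0.000369). Between the control pads, where 7.53% of all genes were lower, 4 of 16 were, 1 of 16 without obese control mice 1 and 3 and 8 of 16 without obese tumor-associated mice 0 and 4. Gata3 was the 1 gene of the list whose obese change differed from the lean change, by -1.79 (edgeR adjusted p = 0.0479), a call held in 4 of 22 fits with 1 library left out.

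Among genes that glucocorticoids induce, several were higher in obese control IWAT, where Nr3c1 was not called. Between obese and lean control IWAT, 5 of 16 were called higher and 0 lower, where 9.54% of all genes were higher and 7.53% lower, with a median of 0.45 against 0.04 over all genes. Fkbp5, which encodes a receptor-bound immunophilin, was at 41.4 ± 28.4 CPM (SD, n = 5) in the control pads of lean mice and at 136 ± 57.6 CPM (SD, n = 6) in obese control IWAT, higher by 1.72 (edgeR adjusted p = 0.0135) and called in 22 of 22 fits with 1 library left out. Tsc22d3, also called GILZ, was higher by 1.17 (edgeR adjusted p = 0.0391) and kept its call in 15 of 22 such fits, and Ddit4, an inhibitor of mTORC1 signaling, by 1.20 (edgeR adjusted p = 0.00261). Without obese control mice 1 and 3 the count was 2 of 16, and Fkbp5 was not among them (edgeR adjusted p = 0.0507). Its call held in 30 of 31 alternatives.

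In obese tumor-associated against control IWAT the same list had 5 called lower and 2 higher, and 3 of each without obese tumor-associated mice 0 and 4. The lower count was near the 27.7% of all genes, and 26.8% of all genes were higher. Zbtb16 fell by 1.39 (edgeR adjusted p = 0.00964) and Klf9, a Krüppel-like transcription factor, by 1.02 (edgeR adjusted p = 0.00244). Mt2 and Mt1, metallothioneins that bind zinc and copper, rose by 1.61 and 1.14. Fkbp5 was at 136 CPM in both obese groups, with a log2 fold change of -0.00 (edgeR adjusted p = 0.996), and in tumor-associated IWAT it was higher in the obese than in the lean mice by 1.62 (edgeR adjusted p = 0.00630). In lean mice Mt2 was the 1 gene of the list called, higher by 1.75 (edgeR adjusted p = 0.0225; called in 16 of 22 fits with 1 library left out).

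Among the enzymes, H6pd supplies the cofactor that lets the Hsd11b1 enzyme work as a reductase. It was at 205 ± 21.9 CPM (SD, n = 5) in the control pads of lean mice and at 370 ± 59.9 CPM (SD, n = 6) in obese control IWAT, higher by 0.85 (edgeR adjusted p = 0.0140), while Hsd11b1 was not called between these groups. In the tumor-associated pads of obese mice it was at 224 ± 93.0 CPM (SD, n = 6) and fell by 0.72 from the control pad (edgeR adjusted p = 0.00783). Of the 14 steroid enzymes tested, 5 fell and 2 rose in obese tumor-associated IWAT, 3 and 0 without mice 0 and 4, where 27.7% of all genes fell and 26.8% rose, and 0 were called in lean mice. Hsd11b2, the enzyme that inactivates glucocorticoids, had 83 counts over the 22 libraries and was not tested, and aromatase (Cyp19a1), which makes estrogens, had 0 counts in each of 22 libraries, where 0 counts allow up to 3 counts or 0.349 to 0.521 CPM in a library by counting error alone.

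Of 6 related receptors tested, 5 were called lower in obese tumor-associated IWAT, where 27.7% of all genes were. Among these 5 were the orphan receptor genes Esrrg at -1.53 and Esrrb at -1.43. Without tumor-associated mice 0 and 4 the count was 4 of 6. In lean mice, where 0.913% of all genes were called lower, 2 of the 6 were, and 0 with the mouse as a block. They were Pgrmc2 at -0.42 (edgeR adjusted p = 0.0334, called in 16 of 22 fits with 1 library left out) and Esrra at -0.40 (edgeR adjusted p = 0.0450, called in 11 of 22). Esr2, encoding estrogen receptor beta, had 6 counts over the 22 libraries and was at 0 in 17 of them.

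The genes of the chaperones that hold these receptors rose. In obese tumor-associated against control IWAT, 8 of 8 were called higher, against 26.8% of all genes, with a median log2 fold change of 1.05, and this was 8 of 8 under each alternative, also without tumor-associated mice 0 and 4. Fkbp4, a cochaperone of steroid receptors, was at 65.2 ± 14.5 CPM (SD, n = 6) in the control pads of obese mice and at 182 ± 116 CPM (SD, n = 6) in their tumor-associated pads, higher by 1.48 (edgeR adjusted p = 0.000501). Stip1, which links the chaperones Hsp70 and Hsp90, rose by 1.24 (edgeR adjusted p = 0.000361), and Hsp90ab1, an Hsp90 gene, by 1.13 (edgeR adjusted p = 0.000322).

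In lean mice 0 of the 8 chaperone genes were called, with a median of 0.10, and between the control pads 0 of 8. Between obese and lean tumor-associated IWAT 8 of 8 were higher, against 24.7% of all genes, with a median of 0.85, and 4 of 8 without obese mice 0 and 4. Proliferation markers were highest in those obese tumor-associated libraries, and their part in the chaperone result was not tested. The obese minus lean change of Fkbp4 was 1.62 (edgeR adjusted p = 0.0463), called in 6 of 22 fits with 1 library left out.

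**Figure D4:**
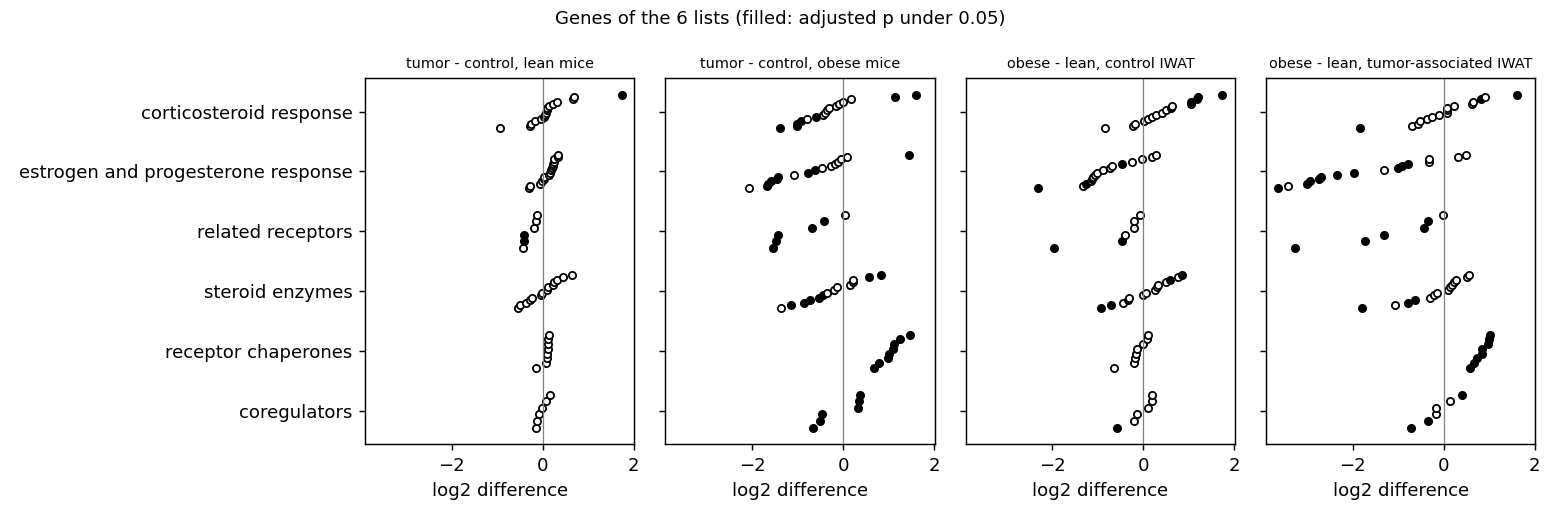
Log2 difference on the x axis for each tested gene of 6 lists around the steroid receptors in 4 comparisons, with 1 point per gene, filled where the adjusted p is under 0.05. All 8 chaperone genes are filled and above 0 for tumor-associated against control IWAT in obese mice, and 0 of 8 are filled in lean mice.

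Among all genes tested, those with the pattern most like each of the 6 over the 22 libraries were found by the root mean square difference of centred log2 CPM. Esr1 was nearest to Epha4 (0.25), Zfp395 (0.26) and Pik3r1 (0.27), where the median over all genes was 1.06. Nr3c1 was nearest to Mpv17 (0.12), Ankrd46 and Atrnl1 (both 0.13), against a median of 0.54. Nr3c2 was nearest to Mettl7a1 (0.21), Ntrk2 (0.22) and Nbea (0.23), and Hsd11b1 to Fmo1 (0.26), Dhdh (0.27) and Sik2 (0.28). The patterns of Pgr and Greb1 had no gene as near, the closest being Rasgrf1 at 0.46, Il8 at 0.46 and Gipc2 at 0.54 for Pgr, and Sytl5 at 0.57, Muc13 at 0.67 and C77370 at 0.70 for Greb1.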

How the data were processed

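RNA was sequenced from 22 libraries of IWAT from 5 lean and 6 obese female mice. The authors trimmed the reads (prinseq), aligned what remained to mm10 by STAR 2.4.0f and deposited raw counts per gene symbol from HTSeq, without normalization; the annotation and strand setting are not given in the sources used here. The table held 23420 symbols and 5 lines that name no gene, which took 57.0% to 65.9% of the reads and were left out. Libraries held 5759775 to 8598108 counts on genes, so counting error limits Greb1. No 2 libraries of a group were closer than sampling noise allows (5.95 was the lowest chi-square per degree of freedom).

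From these counts, 1 model over the 4 groups was fitted by edgeR 4.0.16 under R 4.3.3, with TMM factors and a quasi-likelihood test on the 14458 genes that passed its filter by group; p-values were adjusted by Benjamini-Hochberg over all of them and called under 0.05. Log2 CPM used a prior count of 2, and CPM per kilobase the merged exons of GENCODE M21, which held 21785 of the symbols. The labels name no sequencing batch. Alternatives were DESeq2 1.42.0, other normalizations, filters and sample sets, a block for the mouse, and fits leaving out each library. Those without obese tumor-associated mice 0 and 4, obese control mice 1 and 3, or all 4 were chosen after seeing the data. The 6 genes and all lists were chosen with earlier results of these data known. Named list genes were Fkbp5, Tsc22d3, H6pd, Hsd11b2, Cyp19a1, Esr2 and Prlr, and per list and comparison up to 3 called with the largest rise and 3 with the largest fall; Lep, Cidec and Cfd were named after their values were seen. Some list genes that this rule names are not reported here. The fits were tested on simulated data.

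Both pads of a mouse come from the same animal, so the mouse number pairs the libraries. Deviations from the group means correlated with a median of 0.508 between the pads of lean mice (over 0.1 in 5 of 5) and of 0.168 in obese mice (4 of 6).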

Additional observations from a re-analysis of the deposited data

Results flagged for a closer look

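Over 24 sets of libraries (6 genes in 4 groups), 6 held a library far from the others of its group by Dixon's test, which chance gives in about 1 of 20 sets. Greb1 in obese control mouse 0 was at 27.7 CPM, against 2.60 to 6.91 CPM in the other mice, and Greb1 in obese tumor-associated mouse 0 was at 6.74 CPM, the same mouse standing apart in both pads. Hsd11b1 in obese control mouse 0 was at 94.3 CPM. Pgr in obese tumor-associated mouse 1 was at 47.2 CPM, near its control pad at 47.1 CPM. Esr1 in lean tumor-associated mouse 9 was at 133 CPM, and Nr3c2 in lean control mouse 6 was low, at 25.5 CPM. For the change with tumor, 0 of 6 genes were called different between the diets.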

How the results depend on the processing

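For the 6 genes in 5 comparisons, 895 of 937 alternative values kept their direction and side of the threshold, 33 lost a call, 9 gained one and 0 called values changed sign. In lean mice the count of the 6 genes called rose from 0 to 1 (Hsd11b1) in a fit to the groups compared alone and with 4 obese libraries left out. In obese mice it fell from 6 to 4 in the fit to those groups (Pgr and Greb1 lost) and to 5 without a filter on low counts (Pgr lost). Between the control pads it was 1, and 2 in the fit to those groups, without obese tumor-associated mice 0 and 4 and with 4 libraries left out, but 0 without obese control mice 1 and 3. For the obese minus lean change it was 1 with 4 libraries left out. With 1 library left out it was 0 to 0 in lean mice, 4 to 6 in obese mice, 1 to 2 between control pads, 5 to 6 between tumor-associated pads and 0 to 2 for the obese minus lean change. The cause was not tested.

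Over all genes, the count called in lean mice was 605, with DESeq2 918, fitted on lean libraries only 1437, without obese tumor-associated mice 0 and 4 1175, with 4 libraries left out 1612, and 183 to 952 with 1 library left out. For the obese minus lean change it was 711, with DESeq2 2329, without a filter on low counts 18, without obese tumor-associated mice 0 and 4 199, and 1 to 3568 with 1 library left out. Between control pads it was 1606 to 3428, in obese mice 6915 to 8403 and between tumor-associated pads 5902 to 7464. With the mouse as a replicate block, 0, 6 and 0 of the 6 genes and 669, 7680 and 604 of all genes were called in lean mice, in obese mice and for the obese minus lean change, and the block changed no call of the 6 genes; Pgr in obese mice was at -1.84 (edgeR adjusted p = 0.00418). Greb1 had too few counts for a minimum of 10 counts in all libraries and gave no value there. Under library totals without TMM, 24 of 24 group means of the 6 genes moved by less than 1 SD.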

Other observations

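Coregulators that steroid receptors recruit changed in both directions in obese tumor-associated against control IWAT, with 3 of 6 called lower and 3 higher, where 27.7% of all genes were called lower and 26.8% higher. Ncoa1 fell by 0.65 on the log2 scale (edgeR adjusted p = 0.00204), Ncoa2 by 0.51 (edgeR adjusted p = 6.01e-06) and the corepressor Ncor1 by 0.47 (edgeR adjusted p = 0.000105). Among the higher, Ncoa3 rose by 0.36 and the Mediator subunit Med1 by 0.32. Without obese tumor-associated mice 0 and 4 the lower calls stayed at 3 of 6 and the higher calls were 0. In lean mice 0 of 6 were called. Ncoa2 was the 1 coregulator whose obese change differed from the lean change, by -0.44 (edgeR adjusted p = 0.0373), called in 12 of 22 fits with 1 library left out.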
